A study of Homo sapiens with 12 samples.

Results

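The subject is the difference between 2 hypoxia responses. It is the change that low oxygen brought in cells with the E746-E750 form of EGFR, minus the change that it brought in cells with wild-type (WT) EGFR. The members are the 8 bead arrays of these lines, of 12 in the series, and the difference was taken for each of 11441 genes that had a detected probe among the 47323 probes of the array. All cells were HBEC, human bronchial epithelial cells that stably expressed 1 form of EGFR, grown in keratinocyte serum-free medium with 0.2 ng/mL EGF, 30 µg/mL bovine pituitary extract and 5% CO2. The groups were E746-E750 hypoxic (0.1% O2 for 24 h), E746-E750 aerobic (21% O2), WT hypoxic and WT aerobic, with 2 arrays each. The labels name E746-E750 only by a stretch of kinase residues, and do not state whether a line is 1 clone and whether replicates were grown as separate cultures. A p-value here therefore reflects only how far these samples spread, and that spread may be technical.

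EGFR is a receptor tyrosine kinase that binds EGF and related ligands and signals through the RAS-ERK and PI3K-AKT pathways. E746 to E750 lie in its kinase domain, where alterations seen in lung adenocarcinoma can activate the kinase. Low oxygen stabilises the HIF transcription factors, which raise glycolysis and angiogenic genes. Independently of HIF, low oxygen and a shortage of amino acids or of folding capacity in the endoplasmic reticulum act through the integrated stress response, led by ATF4, and the unfolded protein response, led by XBP1 and ATF6. Sterol synthesis, which consumes oxygen, answers to the SREBP factors. A gene can respond differently in 2 lines because the lines already differed at 21% O2, because they differed at 0.1% O2, or both, and the results below are ordered by that split.

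The 8 arrays had an upper quartile of raw intensity of 157 to 204 and 16485 to 17641 probes detected, and brightness differed by group. WT aerobic arrays were the brightest (203 and 204), while the E746-E750 aerobic pair read 157 and 175. Every hypoxic array lay within 169 to 181. The aerobic comparison of the lines thus spans a gap in brightness, and its calls moved with the scaling. It gave 944 genes at an adjusted p under 0.05 (limma) with quantile normalization, and 3084 with median centring. What part brightness has in these calls was not tested. Replicates correlated at 0.987 to 0.995 over probes, lowest in the E746-E750 hypoxic pair. In that pair, probes of 1 gene often moved apart. Among 3065 genes for which 2 or more probes were kept, the leading 2 probes moved apart by over 1 log2 in 20.6% and 28.1% on the E746-E750 hypoxic arrays and 0% on both E746-E750 aerobic arrays, against 3.07% and 2.61% on the WT hypoxic and 0% on both WT aerobic arrays. The distance between probes was taken relative to its mean over the aerobic arrays, so a low share on those arrays is partly built in. ACTB, the cytoskeletal actin often used as a reference, shows it: 1 of its 3 probes read 7.94 and 7.35 log2 on the E746-E750 hypoxic arrays against 13.89 or more on every other array, while its other probes read 13.68 to 14.46 everywhere. Each gene was represented by its brightest probe, so the second probe is given beside a result wherever one was kept. What part this divergence has in results that rest on a single probe was not tested.

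The expressed receptor itself was read by 2 EGFR probes, which cannot tell the introduced form from the cells' own transcript. The brighter probe read 10.23 and 10.62 (E746-E750 hypoxic), 9.58 and 9.64 (E746-E750 aerobic), 11.02 and 10.70 (WT hypoxic) and 9.99 and 10.19 (WT aerobic) in log2 intensity. Its response did not pass the test for a difference (0.05 ± 0.23, adjusted p = 0.895), but with median centring it was 0.71 and was called higher. The second probe read 7.84 and 8.20 in E746-E750 hypoxic cells and 8.15 and 8.03 in E746-E750 aerobic cells, against 10.49 and 10.59 in WT hypoxic cells and 9.33 and 9.21 in WT aerobic cells. By that probe EGFR was lower in E746-E750 cells at both oxygen levels and its response was lower by 1.34 ± 0.20 (adjusted p = 0.00081). The brighter probe also read lower in E746-E750 cells, by smaller gaps. These were -0.43 in hypoxic cells (adjusted p = 0.0467, limma over all kept probes) and -0.48 in aerobic cells (adjusted p = 0.118). The 2 probes thus gave different answers on the difference in response, and the labels do not say which part of the transcript a probe reads.

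**Figure D1:**
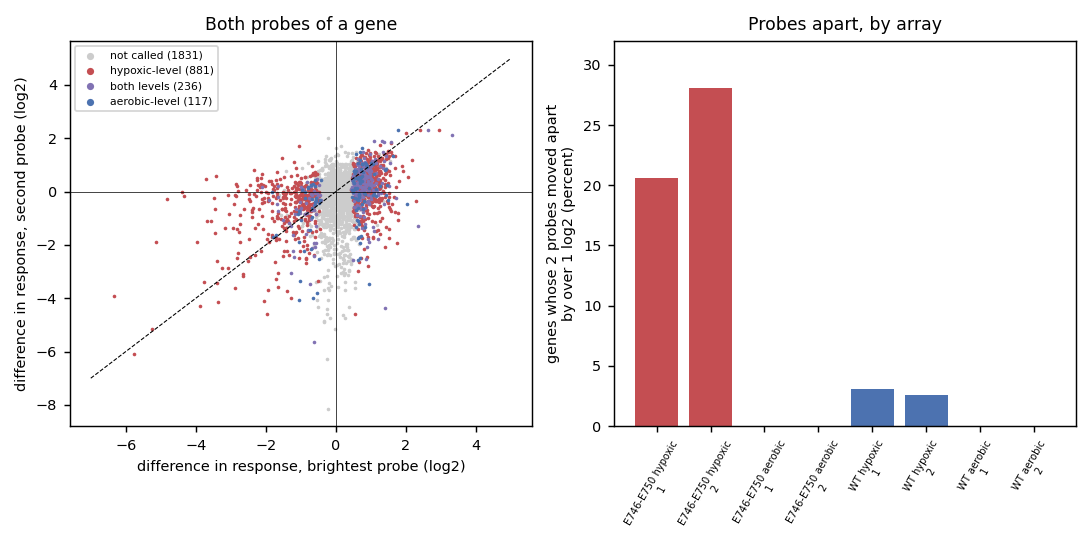
Left: difference in hypoxia response (log2, E746-E750 minus WT) by a gene's brightest probe (x) and by its second probe (y) for 3065 genes, coloured by whether and how the brightest probe was called, with the line of equality dashed. Right: percent of these genes whose 2 probes moved apart by over 1 log2 on each array, relative to their mean distance over the aerobic arrays. Bars are 20.6 and 28.1 for the E746-E750 hypoxic arrays, 3.07 and 2.61 for the WT hypoxic arrays and 0 for the aerobic arrays, which are the reference.

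Stretches of promoter are shown for members of 2 gene groups that the results turn on. Chaperone genes of the unfolded protein response are known for the ER stress response element (ERSE), searched here as CCAAT, any 9 bases and CCACG, which NF-Y and ATF6 bind. Genes of amino acid supply are known for the C/EBP-ATF response element (CARE), searched as TGATGNAAN, which ATF4 binds. Both strands were searched in windows of 250 bases before to 50 after each RefSeq gene start (build GRCh38.p14). Capitals mark the match, and each stretch is given 5′ to 3′ on the gene's own strand and ends before its start. The first 4 genes hold ERSE and the other 4 hold CARE.
HSPA5, chr9:125241355-125241445, minus strand: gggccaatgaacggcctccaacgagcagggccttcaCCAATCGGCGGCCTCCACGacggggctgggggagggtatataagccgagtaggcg
HSP90B1, chr12:103930180-103930375, plus strand: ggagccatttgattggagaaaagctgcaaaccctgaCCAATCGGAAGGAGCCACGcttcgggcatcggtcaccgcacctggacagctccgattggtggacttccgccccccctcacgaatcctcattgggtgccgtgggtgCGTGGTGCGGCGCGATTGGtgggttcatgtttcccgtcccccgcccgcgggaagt
CANX, chr5:179698742-179698832, plus strand: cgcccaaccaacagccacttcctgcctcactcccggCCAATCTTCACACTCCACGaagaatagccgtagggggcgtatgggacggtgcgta
XBP1, chr22:28800570-28800657, minus strand: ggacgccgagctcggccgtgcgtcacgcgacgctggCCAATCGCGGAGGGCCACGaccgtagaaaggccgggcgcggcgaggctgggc
ASNS, chr7:97872432-97872512, minus strand: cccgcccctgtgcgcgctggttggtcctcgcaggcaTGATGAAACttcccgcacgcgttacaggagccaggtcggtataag
CEBPG, chr19:33374035-33374112, plus strand: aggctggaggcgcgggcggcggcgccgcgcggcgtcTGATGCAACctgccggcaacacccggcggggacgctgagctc
IARS1, chr9:92293698-92293747, minus strand: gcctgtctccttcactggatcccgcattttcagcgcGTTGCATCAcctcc
GARS1, chr7:30594808-30594877, plus strand: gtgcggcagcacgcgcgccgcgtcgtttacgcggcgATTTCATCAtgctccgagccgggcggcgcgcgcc
HSP90B1 holds ERSE on both strands, and in IARS1 and GARS1 the capitals are the reverse complement of CARE. Among genes with a window, no member of the integrated stress response or tRNA synthetase lists held ERSE, and no unfolded protein response gene held CARE. CEBPG is outside these lists and not covered by that count. ERSE occurred in 27 of 35116 windows (0.0769%) and in 15 of 9249 tested genes that had a window (0.162%), against 7 of the 14 unfolded protein response genes tested (50%). Of those 7, 5 were called higher in the difference in response, as were 5 of the 7 without it. CARE occurred in 3.61% of windows and in 261 of 9249 tested genes (2.82%), against 6 of 13 aminoacyl-tRNA synthetase genes and 4 of 15 integrated stress response genes with a window. A match is a description of the letters in these windows only.

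Hypoxia acted differently in the 2 lines on a large share of the genes measured. The difference in response was called at an adjusted p under 0.05 (limma) for 4203 of 11441 genes, 36.7%. In 2838 of them (24.8%) the response was higher in E746-E750 cells, meaning that the gene rose more or fell less there, and in 1365 (11.9%) it was lower. At least a 2-fold difference was reached by 789 of those that were higher and 640 of those that were lower. The response itself was called for 6605 genes (57.7%) in E746-E750 cells, against 4444 (38.8%) in WT cells. It was a rise in 34% and a fall in 23.7% of all genes in E746-E750 cells, against 16.1% and 22.7% in WT cells. In 501 of the 4203 genes both responses were called and ran in opposite directions. The scale matters for the balance: over all genes the median difference in response was 0.16 log2 with quantile normalization and 0.51 with median centring, which made 5569 genes higher and 653 lower (89.5% higher, against 67.5%). List medians below are given relative to that median.

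Split by oxygen level, most of the difference lay in the hypoxic cells. The difference in response equals the gap between lines at 0.1% O2 minus the gap at 21% O2. A gene was called hypoxic-level where the first gap was at least 2 times the second in size, aerobic-level in the reverse case, and both-level otherwise. Of the 4203 called genes, 3080 (73.3%) were hypoxic-level, 785 (18.7%) both-level and 338 (8.04%) aerobic-level. Over all 11441 genes the same rule gave 6243 (54.6%), 3604 (31.5%) and 1594 (13.9%). In the hypoxic cells 5786 genes (50.6%) were called different between the lines, against 944 (8.25%) in the aerobic cells. The aerobic count was 178 to 263 without 1 of the 4 aerobic arrays, 386 with the authors' processed values and 3084 with median centring, which put the hypoxic-level share at 51.1%. In 2836 of the 4203 called genes the gap between lines had opposite signs at the 2 oxygen levels. Neither gap was itself called in 284 of them, and with a split by calls in place of size the share with both gaps called was 7.26%.

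**Figure D2:**
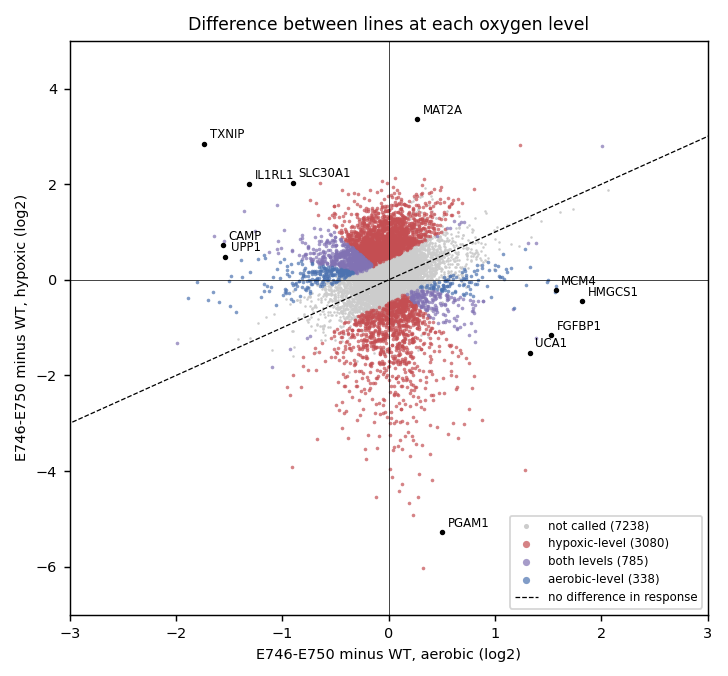
Each point is a gene: E746-E750 minus WT in log2 in aerobic cells (x) and in hypoxic cells (y), with the line of equal gaps dashed. Called genes are coloured as hypoxic-level (3080), both-level (785) or aerobic-level (338); called genes spread far along the hypoxic axis, down to -6.02, and little along the aerobic one.

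The 2 kinds of gap were not equally well reproduced by a second probe. Among called genes with a second probe, that probe moved the same way in 856 of 1234 (69.4%), against 1897 of all 3065 genes with a second probe (61.9%), and 447 of 3065 genes (14.6%) had both probes called, 248 of them higher (8.09%) and 199 lower (6.49%). For the gap in hypoxic cells the second probe had the same sign in 1111 of 1660 called genes (66.9%), against 288 of 311 (92.6%) for the gap in aerobic cells. For the E746-E750 response it was 1362 of 1947 (70%), against 1159 of 1278 (90.7%) for the WT response. The lower share in each pair is that of the comparison that uses the arrays with diverging probes. In 113 genes the second probe was called the opposite way. The counts also depended on single arrays: 2724 genes were called without E746-E750 aerobic replicate 1 and 2709 without WT aerobic replicate 2. With the 4 L858R arrays added to the fit, 870 genes were called.

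Genes of amino acid supply differed between the lines at 21% O2. Members of the integrated stress response, through which ATF4 raises amino acid synthesis and uptake, had a median gap between lines of 0.07 log2 in hypoxic cells and -0.54 in aerobic cells. Their median response was 0.89 in E746-E750 cells, against -0.39 in WT cells. Of 17 list members tested, 9 were called higher in the response (52.9%, against 24.8% of all genes) and none lower, and 10 were called lower in aerobic E746-E750 cells (4.85% of all genes were). By level, 4 of the 9 were aerobic-level, 4 both-level and 1 hypoxic-level. The list's median difference in response was 0.84 above that of all genes, and 0.69 above it with median centring. With the L858R arrays in the fit, 3 of the 17 were called.

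ASNS, which makes asparagine, read 13.03 and 13.29 in E746-E750 hypoxic cells and 12.09 and 11.95 in E746-E750 aerobic cells, against 12.62 and 12.79 in WT hypoxic cells and 13.19 and 13.19 in WT aerobic cells. The E746-E750 aerobic arrays are the low pair, below all 6 others, and the gap between lines was 0.45 in hypoxic cells and -1.17 in aerobic cells (adjusted p = 0.0126 and 0.000757). Its difference in response was 1.62 ± 0.18 (adjusted p = 0.000172), and its second probe gave 1.35 (adjusted p = 0.000274). CEBPG, a C/EBP factor that pairs with ATF4 and is not a list member, read 11.02 and 11.11 (E746-E750 hypoxic), 9.54 and 9.47 (E746-E750 aerobic), 10.52 and 10.56 (WT hypoxic) and 10.60 and 10.75 (WT aerobic). Again the E746-E750 aerobic pair is the lowest, and the difference in response was 1.69 ± 0.16 (adjusted p = 6.6e-05) from a single kept probe. NIBAN1, a stress-induced regulator of translation outside the list, read 9.48 and 9.37 in E746-E750 hypoxic cells and 8.0 and 8.15 in E746-E750 aerobic cells, against 9.47 and 9.45 in WT hypoxic cells and 9.79 and 9.97 in WT aerobic cells. Its hypoxic gap was -0.04 and the aerobic gap -1.81, with a difference in response of 1.77 ± 0.17 (adjusted p = 6.72e-05) by the first probe and 2.31 (adjusted p = 8.34e-05) by the second.

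DDIT3, which encodes the stress factor CHOP, rose in both lines. It read 11.49 and 10.81 in E746-E750 hypoxic cells and 8.20 and 8.02 in E746-E750 aerobic cells, against 10.69 and 10.75 in WT hypoxic cells and 9.34 and 9.33 in WT aerobic cells. The gap between lines was 0.43 in hypoxic cells (adjusted p = 0.0817) and -1.23 in aerobic cells (adjusted p = 0.00391), and the difference in response was 1.65 ± 0.27 (adjusted p = 0.00124); with the L858R arrays in the fit it was not called. PSAT1, of serine synthesis, was both-level at 1.68 ± 0.19 (adjusted p = 0.000178): its levels were 12.25 and 12.44 (E746-E750 hypoxic), 11.28 and 11.44 (E746-E750 aerobic), 11.62 and 11.74 (WT hypoxic) and 12.24 and 12.50 (WT aerobic), so that it rose in E746-E750 cells and fell in WT cells. MTHFD2, a mitochondrial folate enzyme chosen after its values were seen, had a difference in response of 1.16 ± 0.20 (adjusted p = 0.00154) with an aerobic gap of -0.95. PCK2, the mitochondrial PEP carboxykinase and also outside the list, gave 2.36 ± 0.18 (adjusted p = 1.7e-05) by its brightest probe but -1.30 (adjusted p = 0.000534) by its second, so its direction is not settled. SLC3A2, the heavy chain of amino acid transporters and also chosen after its values were seen, has the same conflict, 1.42 against a second probe at -4.35 (adjusted p = 1.96e-06).

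The aminoacyl-tRNA synthetases, which load amino acids onto tRNAs and are ATF4 targets, were called in the same direction. Of 16 tested, 12 were called higher in the response (75%, against 24.8% of all genes) and none lower, divided evenly as 4 hypoxic-level, 4 both-level and 4 aerobic-level. The median over the list was 0.64 above that of all genes, and 10 of the 16 were called higher in hypoxic E746-E750 cells (33.2% of all genes were) while 8 were called lower in aerobic ones (4.85% of all genes were). WARS1, the tryptophan enzyme, read 12.24 and 11.99 in E746-E750 hypoxic cells and 10.01 and 10.13 in E746-E750 aerobic cells, against 10.77 and 10.77 in WT hypoxic cells and 10.62 and 10.85 in WT aerobic cells. The E746-E750 hypoxic pair is the highest and the E746-E750 aerobic pair the lowest, and the difference in response was 2.01 ± 0.18 (adjusted p = 5.74e-05), with 2.20 (adjusted p = 1.26e-05) from the second probe. IARS1, for isoleucine, gave 2.06 ± 0.16 (adjusted p = 1.7e-05) and GARS1, for glycine, 1.33 ± 0.17 (adjusted p = 0.000374); these 2, with CARE in the stretches above, each had a single kept probe. IARS1 rose by 1.10 in E746-E750 cells and fell by 0.96 in WT cells. With the L858R arrays in the fit, 4 of the 16 were called, and IARS1 was not among the calls.

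**Figure D3:**
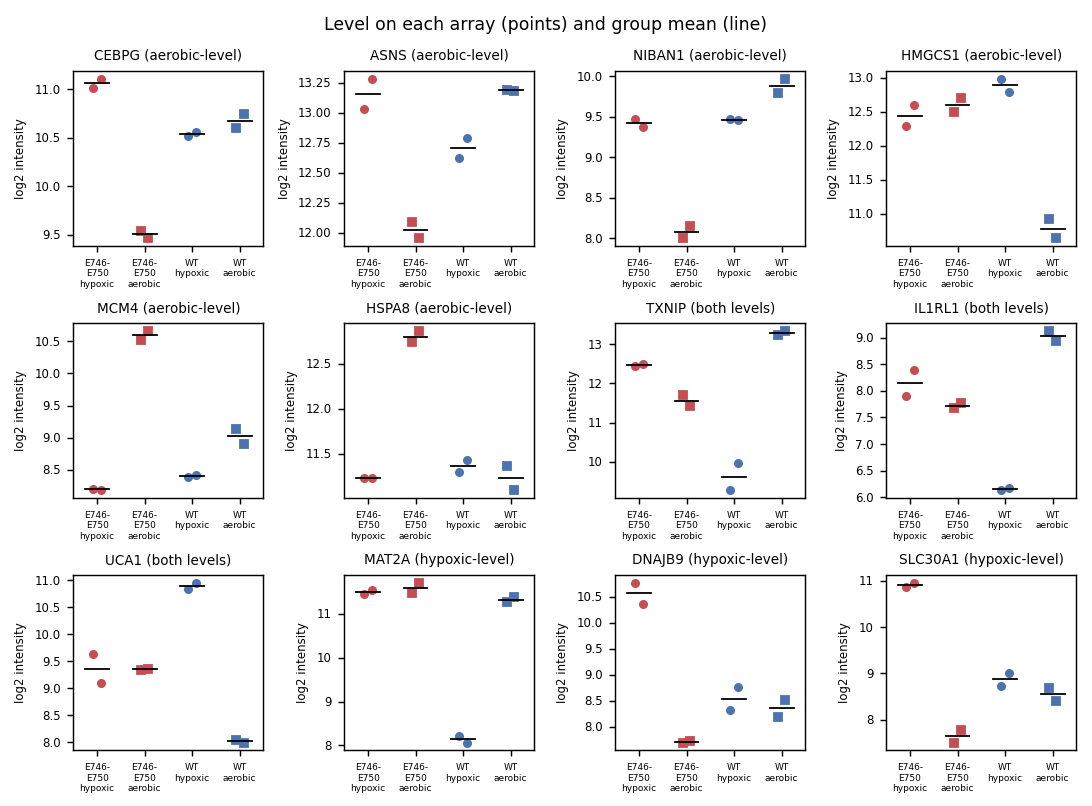
Log2 intensity on each array (points) and group mean (line) for 12 genes, with the E746-E750 hypoxic, E746-E750 aerobic, WT hypoxic and WT aerobic groups from left to right; the vertical scale differs by gene and does not start at 0. In the 6 aerobic-level genes an aerobic pair stands apart from the others, and in MAT2A the WT hypoxic pair does.

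Other aerobic-level genes included secreted and surface proteins of epithelium. CAMP, the antimicrobial cathelicidin, was highest in aerobic WT cells: it read 7.25 and 7.72 in E746-E750 hypoxic cells and 7.14 and 7.10 in E746-E750 aerobic cells, against 6.49 and 7.04 in WT hypoxic cells and 8.60 and 8.76 in WT aerobic cells, a difference in response of 2.28 ± 0.27 (adjusted p = 0.000271). CLDN1, a tight junction claudin, gave 1.81 ± 0.17 (adjusted p = 7.42e-05), rising by 1.03 in E746-E750 cells and falling by 0.78 in WT cells. HBEGF, a ligand of EGFR, had a gap between lines of 0.36 in hypoxic and -1.02 in aerobic cells, with a difference in response of 1.39 ± 0.19 (adjusted p = 0.000503). Of the 10 EGFR family and ligand genes tested, 3 were called higher in the response (HBEGF, LRIG1 and CBL; 30%, against 24.8% of all genes) and none lower, and with median centring 9 were called higher. LRIG1 and CBL, which both promote removal of the receptor, gave 0.84 and 0.73, each with a second probe called the same way; neither was called with the L858R arrays in the fit. UPP1, uridine phosphorylase, gave 2.03 ± 0.18 (adjusted p = 5.27e-05) by its brightest probe and -0.47 (adjusted p = 0.0614) by its second. PHLDA1, an ERK-responsive gene, likewise gave 1.47 and -0.31 (adjusted p = 0.159).

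Sterol synthesis ran the other way. In hypoxic cells 8 of its 18 genes tested were called lower with E746-E750 EGFR, and in aerobic cells 15 lay above WT, 5 of them called (17.3% and 3.4% of all genes were called these ways). With median centring 4 were called lower and 5 higher in hypoxic cells, and in aerobic cells 10 lay above WT. Of the 18, 11 were called lower in the response (61.1%, against 11.9% of all genes) and 1, HSD17B7, higher. The median response was 0.16 in E746-E750 cells against 1.16 in WT cells, and the list's median difference lay 1.06 below that of all genes, or 0.81 below with median centring. HMGCS1, which makes the HMG-CoA that feeds the pathway, read 12.29 and 12.59 in E746-E750 hypoxic cells and 12.50 and 12.70 in E746-E750 aerobic cells, against 12.99 and 12.79 in WT hypoxic cells and 10.92 and 10.64 in WT aerobic cells. The WT aerobic pair is the low one and the difference in response was -2.27 ± 0.21 (adjusted p = 7.05e-05). INSIG1, the sterol sensor's partner that SREBP induces, gave -1.82 ± 0.20 (adjusted p = 0.000155), but its second probe gave -0.02 (adjusted p = 0.956). The 11 were 4 aerobic-level, 3 both-level and 4 hypoxic-level. EBP, a sterol isomerase, was among the hypoxic-level ones at -3.53 ± 0.69 (adjusted p = 0.00342). MSMO1, a sterol methyl oxidase that uses oxygen, passed narrowly at -0.63 ± 0.19 (adjusted p = 0.0273) while its second probe gave -5.66 (adjusted p = 2.17e-07). With median centring 4 were called lower in the response and 3 higher. The count called lower was 3 with the L858R arrays, 7 with the authors' processed values and 7 without WT aerobic replicate 2.

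DNA replication genes were mostly higher in E746-E750 cells at both oxygen levels. All 35 tested had an aerobic gap above 0, 21 of them called (3.4% of all genes were), with a median of 0.69. With median centring 28 of 35 were above 0, 13 called, with a median of 0.33. In hypoxic cells 22 were called higher and 5 lower (33.2% and 17.3% of all genes were), with a median gap of 0.49. With median centring these counts were 24 and 4, with a median gap of 0.69. In the difference in response, 10 were called lower (28.6%, against 11.9% of all genes) and 1 higher, POLE. The list's median difference in response was -0.23 with quantile normalization and 0.36 with median centring, which is 0.38 and 0.15 below that of all genes. MCM4, a subunit of the replicative helicase, read 8.21 and 8.18 in E746-E750 hypoxic cells and 10.52 and 10.66 in E746-E750 aerobic cells, against 8.39 and 8.43 in WT hypoxic cells and 9.13 and 8.91 in WT aerobic cells. The E746-E750 aerobic pair is above all others and the hypoxic pairs lie close together, and the difference in response was -1.79 ± 0.17 (adjusted p = 6.82e-05), with -1.70 (adjusted p = 9.02e-05) from the second probe. MCM7, of the same helicase, gave -1.23 ± 0.18 (adjusted p = 0.000777) and -2.24 (adjusted p = 1.72e-05) from the second probe; it was not called with the L858R arrays. RRM2, of ribonucleotide reductase, was not detected on the E746-E750 hypoxic arrays and read 8.33 and 8.73 on the E746-E750 aerobic, 7.86 and 7.95 on the WT hypoxic and 7.82 and 7.79 on the WT aerobic arrays, so its response was at least 4.57-fold lower. With median centring the balance turned, to 6 called lower and 14 higher. With the L858R arrays in the fit 3 were called lower.

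Mitosis genes, by contrast, had a smaller aerobic gap, with a median of 0.25 that turned to -0.05 with median centring. None of 26 was called higher in the response and 6 were called lower, 23.1% against 11.9% of all genes; with median centring the counts were 9 higher and 0 lower, and the list's median of -0.17 turned to 0.42. CDK1, the mitotic kinase, was level in 3 groups and low in the aerobic WT cells: it read 10.41 and 10.14 in E746-E750 hypoxic cells and 10.33 and 10.35 in E746-E750 aerobic cells, against 10.40 and 10.42 in WT hypoxic cells and 9.34 and 9.49 in WT aerobic cells. Its difference in response was -1.06 ± 0.18 (adjusted p = 0.0015), with -1.89 (adjusted p = 3.93e-05) from the second probe, and was not called with median centring or with the L858R arrays. S100A9, a calcium-binding protein of inflamed epithelium, was aerobic-level at -1.76 ± 0.33 (adjusted p = 0.00261), high on the E746-E750 aerobic arrays (10.46 and 10.16) against 8.97 and 9.28 on the WT aerobic arrays; it too was not called with the L858R arrays.

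Cytosolic heat shock genes were above WT in aerobic E746-E750 cells in 11 of 13 cases, or 7 of 13 with median centring. Of 13 tested, 7 were called lower in the response (53.8%, against 11.9% of all genes) and 2 higher (15.4%, against 24.8%), namely HSPA4 and HSP90AB1. In aerobic E746-E750 cells 5 were called higher (3.4% of all genes were), or 2 with median centring. HSPA8, the constitutive HSC70 chaperone, read 11.24 and 11.24 in E746-E750 hypoxic cells and 12.74 and 12.87 in E746-E750 aerobic cells, against 11.30 and 11.43 in WT hypoxic cells and 11.37 and 11.10 in WT aerobic cells. The E746-E750 aerobic pair alone is high, and the difference in response was -1.70 ± 0.18 (adjusted p = 0.000125), with -1.62 (adjusted p = 0.000176) from the second probe. HSPA1A, the inducible HSP70, gave -2.61 ± 0.62 (adjusted p = 0.0089), but its WT hypoxic arrays lie far apart (10.06 and 8.17), its near-identical copy HSPA1B shares its sequence, and it was not called with the L858R arrays or with a trended robust spread. DNAJB1, an HSP70 co-chaperone, was hypoxic-level at -2.22 ± 0.28 (adjusted p = 0.000324). With median centring 4 were called lower in the response and 4 higher, and with the L858R arrays 2 were called lower.

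**Figure D4:**
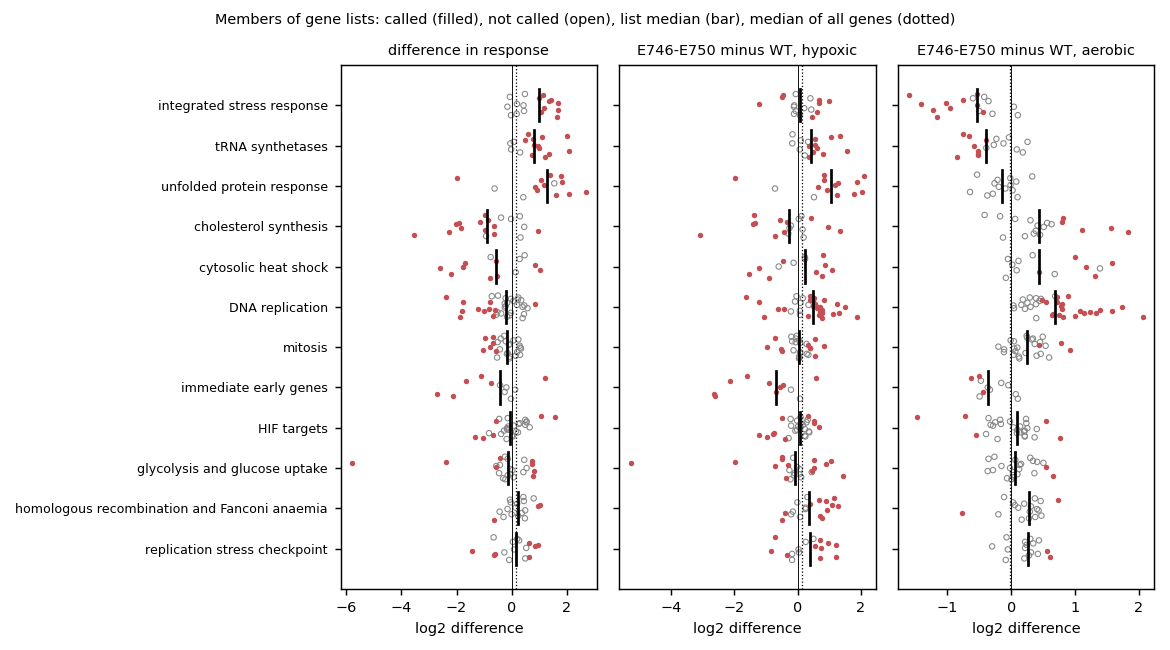
Members of 12 gene lists by difference in response (left), gap between lines in hypoxic cells (middle) and gap in aerobic cells (right), all E746-E750 minus WT in log2. Filled points were called, bars are list medians and the dotted line is the median of all genes; the solid line is 0. The integrated stress response and tRNA synthetase medians lie left of 0 in aerobic cells, and all 35 DNA replication genes lie right of it (28 with median centring).

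In 770 of the 785 both-level genes the gap between lines changed sign with oxygen, which the rule favours, since like gaps of 1 sign cancel. TXNIP, the thioredoxin-interacting protein that restrains glucose uptake, had the highest difference in response of all named genes, 4.58 ± 0.28 (adjusted p = 5.53e-06). It read 12.45 and 12.49 in E746-E750 hypoxic cells and 11.70 and 11.42 in E746-E750 aerobic cells, against 9.27 and 9.97 in WT hypoxic cells and 13.24 and 13.34 in WT aerobic cells. Hypoxia raised it by 0.91 in E746-E750 cells, against a change of -3.67 in WT cells, and the gap between lines was 2.85 in hypoxic and -1.73 in aerobic cells. Its relative ARRDC4, an arrestin also driven by glucose-sensing MondoA, was hypoxic-level and moved the same way: it rose by 0.79 in E746-E750 cells and fell by 1.62 in WT cells. For ARRDC4 the difference in response was 2.41 ± 0.17 (adjusted p = 1.35e-05), with 2.31 (adjusted p = 1.15e-05) from the second probe, and it was not called with the L858R arrays in the fit. TXNIP had 1 kept probe and was called in all 20 alternatives tried on it.

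IL1RL1, the receptor for interleukin 33, read 7.90 and 8.39 in E746-E750 hypoxic cells and 7.68 and 7.77 in E746-E750 aerobic cells, against 6.13 and 6.16 in WT hypoxic cells and 9.13 and 8.94 in WT aerobic cells. This probe was undetected on the WT hypoxic arrays, so by it the response was at least 8.18-fold higher in E746-E750 cells. The second probe gave the smaller value of 2.12 (adjusted p = 2.38e-05). SNHG17, a small nucleolar RNA host transcript, gave 2.81 ± 0.16 (adjusted p = 3.32e-06), with a fall of 2.61 in WT cells. UCA1, a long non-coding RNA, read 9.63 and 9.10 in E746-E750 hypoxic cells and 9.34 and 9.36 in E746-E750 aerobic cells, against 10.84 and 10.95 in WT hypoxic cells and 8.05 and 8.0 in WT aerobic cells. Its change with hypoxia was 0.02 in E746-E750 cells (adjusted p = 0.937), against a rise of 2.87 in WT cells, a difference in response of -2.85 ± 0.22 (adjusted p = 2.1e-05). FGFBP1, which releases FGF from the matrix, fell by 1.49 in E746-E750 cells and rose by 1.19 in WT cells, a difference of -2.68 ± 0.23 (adjusted p = 3.87e-05). SNHG17, UCA1 and FGFBP1 had 1 kept probe each and were called in every alternative tried on them.

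Among genes that differed in hypoxic cells, the unfolded protein response, whose chaperones fold proteins in the endoplasmic reticulum, had the highest median of the lists. Of 14 tested, 10 were called higher in the response (71.4%, against 24.8% of all genes) and 1 lower, PDIA6. Of the 10, 9 were hypoxic-level and 1, XBP1, both-level. None of the 14 was called different in aerobic cells, where 8.25% of all genes were (5 were called lower there with median centring). In hypoxic E746-E750 cells 11 were called higher, against 33.2% of all genes. The list's median response was 0.43 in E746-E750 cells against -0.45 in WT cells, and its median difference lay 1.12 above that of all genes, or 1.36 with median centring; its median gap was 1.05 in hypoxic and -0.14 in aerobic cells. With the L858R arrays in the fit 5 were called.

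DNAJB9, an HSP40 co-chaperone that XBP1 induces, read 10.77 and 10.37 in E746-E750 hypoxic cells and 7.70 and 7.72 in E746-E750 aerobic cells, against 8.32 and 8.76 in WT hypoxic cells and 8.18 and 8.52 in WT aerobic cells. Only the E746-E750 hypoxic pair is high, and the difference in response was 2.67 ± 0.26 (adjusted p = 8.49e-05); the gene had 1 kept probe. CANX, the lectin chaperone calnexin whose promoter is shown above, gave 1.61 ± 0.20 (adjusted p = 0.000311) with 1.39 (adjusted p = 0.00157) from its second probe. It read 10.94 and 10.82 (E746-E750 hypoxic), 9.11 and 9.19 (E746-E750 aerobic), 9.45 and 9.84 (WT hypoxic) and 9.46 and 9.59 (WT aerobic). XBP1 itself was both-level, 1.37 ± 0.21 (adjusted p = 0.000938) and 1.14 (adjusted p = 0.000899) by its 2 probes, and was not called with the L858R arrays. HSPA5, the master chaperone BiP, was chosen after its values were seen, for its promoter: it read 10.53 and 10.25 in E746-E750 hypoxic cells and 10.61 and 10.75 in E746-E750 aerobic cells, against 9.03 and 9.40 in WT hypoxic cells and 10.80 and 10.59 in WT aerobic cells. Its change with hypoxia was -0.30 in E746-E750 cells (adjusted p = 0.128) and -1.48 in WT cells, a difference of 1.18 ± 0.22 (adjusted p = 0.00262). HSP90B1, or GRP94, also named for its promoter, gave 0.85 ± 0.19 (adjusted p = 0.0061).

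Other hypoxic-level genes named by the rule encode metabolic enzymes and transporters. MAT2A, which makes S-adenosylmethionine from methionine, differed most in hypoxic cells: it read 11.46 and 11.54 in E746-E750 hypoxic cells and 11.48 and 11.71 in E746-E750 aerobic cells, against 8.21 and 8.06 in WT hypoxic cells and 11.26 and 11.39 in WT aerobic cells. Its change with hypoxia was -0.10 in E746-E750 cells (adjusted p = 0.533) and -3.19 in WT cells, and the difference was 3.09 ± 0.18 (adjusted p = 3.32e-06) from 1 kept probe. SLC30A1, the plasma membrane zinc exporter induced by zinc, rose in E746-E750 cells: it read 10.87 and 10.95 in E746-E750 hypoxic cells and 7.51 and 7.78 in E746-E750 aerobic cells, against 8.74 and 9.02 in WT hypoxic cells and 8.69 and 8.4 in WT aerobic cells. Both of its probes were called, at 2.94 ± 0.21 (adjusted p = 1.42e-05) and 2.32 (adjusted p = 1.21e-05). Of 7 genes tested in the list of metallothioneins, which zinc also induces, the 1 called higher was SLC30A1 itself. Called lower were 2 metallothioneins, MT1G and MT1X (24.8% of all genes were called higher and 11.9% lower). MT1G was not called with median centring or cyclic loess. SLC23A2, the vitamin C transporter, gave 2.31 ± 0.19 (adjusted p = 3.1e-05) from 1 probe.

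FYN, a SRC-family kinase, read 9.92 and 10.16 in E746-E750 hypoxic cells and 7.91 and 7.98 in E746-E750 aerobic cells, against 8.23 and 8.27 in WT hypoxic cells and 8.33 and 8.33 in WT aerobic cells, a difference of 2.17 ± 0.16 (adjusted p = 1.7e-05), and its second probe gave 1.18 (adjusted p = 0.00253). LARP1B, an RNA-binding protein, gave 2.07 ± 0.16 (adjusted p = 2.16e-05) and 0.55 (adjusted p = 0.044) by its 2 probes, and KMT5B, a histone H4 methyltransferase, 1.90 ± 0.19 (adjusted p = 9.66e-05) and 0.77 (adjusted p = 0.0147). In these 3 genes both probes passed, and the second gave the smaller value. PVR, the poliovirus receptor and nectin-like adhesion protein, shows the opposite case, with 2.29 ± 0.17 (adjusted p = 1.42e-05) by its brightest probe and -0.36 (adjusted p = 0.108) by its second.

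Immediate early genes, the first targets of growth factor signalling, were mostly lower in hypoxic E746-E750 cells. Of 11 tested, 5 were called lower in the response (FOS, EGR1, JUNB, JUN and KLF6; 45.5%, against 11.9% of all genes), all hypoxic-level, and JUND was called higher. In hypoxic cells 8 of the 11 were called lower with E746-E750 (17.3% of all genes were) and 1 higher, with a median gap of -0.70. In aerobic cells 3 were called lower (4.85% of all genes were) and none higher, with a median gap of -0.37. With median centring 7 were called lower in hypoxic and 8 in aerobic cells. FOS read 9.24 and 9.58 in E746-E750 hypoxic cells and 10.40 and 10.10 in E746-E750 aerobic cells, against 12.13 and 11.97 in WT hypoxic cells and 10.03 and 10.32 in WT aerobic cells. With hypoxia FOS fell by 0.84 in E746-E750 cells and rose by 1.88 in WT cells, a difference of -2.72 ± 0.23 (adjusted p = 3.1e-05). EGR1 read 9.38 and 8.81 in E746-E750 hypoxic cells and 11.59 and 11.36 in E746-E750 aerobic cells, against 11.66 and 11.78 in WT hypoxic cells and 11.98 and 11.96 in WT aerobic cells, a difference of -2.13 ± 0.24 (adjusted p = 0.000212) that was not called with the L858R arrays. JUNB was undetected on the E746-E750 hypoxic arrays, so its response was at least 2.57-fold lower. All 5 had 1 kept probe each. By the gap between lines, 7 of 15 ERK feedback and output genes were called lower in hypoxic and 6 in aerobic E746-E750 cells. With median centring these counts were 4 and 10. Of 15 ERK feedback and output genes, 1 was called higher (PHLDA1) and 2 lower, DUSP1 at -0.56 ± 0.18 (adjusted p = 0.0351) and IER3 at -0.61 ± 0.20 (adjusted p = 0.0374); of the 8 fits that left out 1 array, DUSP1 was called in 3 and IER3 in 1.

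Hypoxic-level losses in E746-E750 cells included the largest differences measured, and for many of them the other probes of the gene gave a smaller value or another sign. Such losses were not particular to this line, since most of the probes named in this and the next paragraph also read low on the L858R hypoxic arrays (values at the end). PGAM1, a glycolytic mutase, read 8.39 and 7.0 in E746-E750 hypoxic cells and 12.63 and 12.46 in E746-E750 aerobic cells, against 12.93 and 13.00 in WT hypoxic cells and 12.11 and 11.98 in WT aerobic cells, a difference of -5.78 ± 0.46 (adjusted p = 2.51e-05), and its second probe gave -6.07 (adjusted p = 2.17e-07). The copy PGAM4 is near-identical to it. RPL29, of the large ribosomal subunit, gave -5.25 ± 0.35 (adjusted p = 8.49e-06) and -5.17 (adjusted p = 8.46e-06), and RPS7, of the small one, -3.89 ± 0.29 (adjusted p = 1.7e-05) and -4.28 (adjusted p = 0.000167). Among 16 ribosomal protein genes of the list used here, by contrast, 1 was called lower (RPS2) and none higher, with a list median of -0.14. RPL29 and RPS7 are not in that list. ANXA8, an annexin with the near-identical copy ANXA8L1, was undetected on the E746-E750 hypoxic arrays (6.06 and 6.03) and read 11.29 and 11.21 on the E746-E750 aerobic, 11.11 and 10.82 on the WT hypoxic and 11.09 and 10.94 on the WT aerobic arrays. By the brightest probe its response was at least 27-fold lower and that of MAEA, a ubiquitin ligase subunit, at least 10.1-fold lower. Their second probes gave the smaller values of -1.90 (adjusted p = 0.00918) and -1.89 (adjusted p = 6.48e-05).

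Probes for ribosomal RNA fell too. The brightest probe of RNA28SN5 was undetected on the E746-E750 hypoxic arrays (6.17 and 6.22) against 13.11 and 12.19 on the E746-E750 aerobic, 12.01 and 12.42 on the WT hypoxic and 12.95 and 11.70 on the WT aerobic arrays. By that probe its response was at least 68.7-fold lower, and the second probe gave the smaller value of -3.90 (adjusted p = 0.00121). RNA18SN5 gave -4.51 ± 0.27 (adjusted p = 5.02e-06). AP1S1, a clathrin adaptor subunit, was at least 23.6-fold lower and FADS2, a fatty acid desaturase, at least 21.2-fold lower, both from 1 probe. For HNRNPK, an RNA-binding protein, the brightest probe gave -3.42 ± 0.69 (adjusted p = 0.00393) and the second 0.59 (adjusted p = 0.0312); for IKBIP it was -3.72 ± 0.30 (adjusted p = 2.28e-05) and 0.48 (adjusted p = 0.12), and for MOCS2, of molybdenum cofactor synthesis, at least 5.22-fold lower and 0.27 (adjusted p = 0.227). Of the 4203 called genes, 586 had a group that neither of its arrays detected, so that their size is a bound or unknown.

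HIF targets had similar median responses in the 2 lines. Their median response was 2.32 in E746-E750 cells and 2.28 in WT cells over 28 genes, with 2 called higher in the difference (VEGFA and STC2) and 4 lower (ANGPTL4, ANKRD37, CA12 and PFKFB4), 7.14% and 14.3%, against 24.8% and 11.9% of all genes. A response that misses the threshold is not shown to be equal. The counts moved with the setting, to 9 and 2 with median centring, 0 and 0 with the L858R arrays, and 8 higher without E746-E750 hypoxic replicate 1. VEGFA, the angiogenic growth factor, read 11.14 and 11.47 in E746-E750 hypoxic cells and 8.42 and 8.35 in E746-E750 aerobic cells, against 11.01 and 10.92 in WT hypoxic cells and 9.13 and 9.10 in WT aerobic cells. The aerobic pairs differ and the hypoxic pairs are close, so that it was aerobic-level, at 1.07 ± 0.18 (adjusted p = 0.0016) with 1.05 (adjusted p = 0.00104) from the second probe. STC2, a secreted stanniocalcin that ATF4 also induces, was aerobic-level as well, at 1.57 ± 0.18 (adjusted p = 0.000239) with an aerobic gap of -1.48. ANGPTL4, which inhibits lipoprotein lipase, gave -1.05 ± 0.21 (adjusted p = 0.00386) and -4.05 (adjusted p = 0.000123) by its 2 probes. None of VEGFA, STC2 and ANGPTL4 was called with the L858R arrays in the fit.

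Glycolysis and glucose uptake genes gave 4 calls higher and 4 lower among 23 tested, 17.4% each way against 24.8% and 11.9% of all genes. Apart from PGAM1, PGK1, the phosphoglycerate kinase, was lower at -2.38 ± 0.54 (adjusted p = 0.00729), with 12.65 and 10.98 on the E746-E750 hypoxic arrays against 13.74 and 13.84 on the WT hypoxic arrays; 1 E746-E750 hypoxic array is the low one, and the second probe gave -0.61 (adjusted p = 0.0164). HK1, hexokinase, gave 0.80 ± 0.16 (adjusted p = 0.00351) by its brightest and -1.36 (adjusted p = 0.00138) by its second probe. GAPDH had a difference of -0.15 (adjusted p = 0.466) and ACTB, by its brightest probe, 0.12 (adjusted p = 0.578). Oxidative phosphorylation genes gave 5 higher and 3 lower of 22 (22.7% and 13.6%), or 10 and 1 with median centring and 1 and 3 with cyclic loess. P4HB, of collagen hydroxylation and disulfide formation, was the 1 gene of 7 collagen-modifying enzymes called, at 1.05 ± 0.15 (adjusted p = 0.000646).

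The series asks about repair at replication forks, and the counts of its repair lists depended on the scaling. Of 18 homologous recombination and Fanconi anaemia genes, 2 were called higher in the response and 1 lower, 11.1% and 5.56%, against 24.8% and 11.9% of all genes; with median centring the counts were 11 and 0. NBN, of the break-sensing MRN complex, read 8.72 and 8.68 in E746-E750 hypoxic cells and 8.56 and 8.70 in E746-E750 aerobic cells, against 7.38 and 7.5 in WT hypoxic cells and 8.22 and 8.42 in WT aerobic cells. Its change with hypoxia was 0.07 in E746-E750 cells (adjusted p = 0.629) and -0.88 in WT cells, a difference of 0.95 ± 0.17 (adjusted p = 0.00209) with 0.59 (adjusted p = 0.0208) from the second probe. PALB2 gave 1.03 ± 0.18 (adjusted p = 0.00184) and BARD1 -0.65 ± 0.15 (adjusted p = 0.00802); BARD1 turned to 0.01 with median centring. BRCA1 read 7.43 and 7.55 (E746-E750 hypoxic), 7.60 and 7.52 (E746-E750 aerobic), 7.29 and 7.53 (WT hypoxic) and 7.14 and 7.23 (WT aerobic) and its difference of -0.30 ± 0.17 did not pass the test (adjusted p = 0.195). Of 16 replication stress checkpoint genes, 4 were called higher (25%) and 3 lower (18.8%), or 7 and 1 with median centring and 2 and 4 with cyclic loess. H2AX, the histone marked at breaks, gave -1.42 ± 0.18 (adjusted p = 0.000388), and RAD17, a clamp loader, 0.85 ± 0.18 (adjusted p = 0.00521) with 0.85 (adjusted p = 0.00691) from the second probe.

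Non-homologous end joining had 4 genes called higher and 1 lower of 8 (50% and 12.5%, against 24.8% and 11.9% of all genes), or 5 and 0 with median centring and 2 and 1 with cyclic loess, but 2 of the 4, XRCC6 and PRKDC, had a second probe of the other sign. For XRCC6, or Ku70, the probes gave 1.13 ± 0.19 (adjusted p = 0.00173) and -0.27 (adjusted p = 0.662). Of 17 base excision and single-strand break repair genes, 4 were called higher (23.5%) and 1 lower (5.88%), or 13 and 1 with median centring, with NEIL2 and MBD4, 2 DNA glycosylases, at 1.43 ± 0.23 (adjusted p = 0.0012) and 1.46 ± 0.33 (adjusted p = 0.00693) and OGG1 at -1.15 ± 0.17 (adjusted p = 0.000783). Among 16 p53 targets 2 were called higher (12.5%) and 4 lower (25%), or 10 and 4 with median centring. TP53INP1, a p53-induced stress protein, was higher with E746-E750 at both oxygen levels, 2.81 in hypoxic and 1.23 in aerobic cells, a difference in response of 1.58 ± 0.23 (adjusted p = 0.000658) and 1.83 (adjusted p = 0.00108) by its 2 probes. BAX, which permeabilises mitochondria, gave -2.93 ± 0.28 (adjusted p = 7.12e-05) and -1.36 (adjusted p = 0.000545).

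Inflammatory, interferon and secreted genes went in several directions. Of 12 cytokine and NF-kB genes, 4 were called lower and 1 higher (33.3% and 8.33%), or 1 and 2 with median centring, with CXCL8, a neutrophil chemokine, at -1.18 ± 0.29 (adjusted p = 0.0102) and -0.85 (adjusted p = 0.00606) by its 2 probes and NFKBIA, the NF-kB inhibitor, at -1.15 ± 0.16 (adjusted p = 0.000569). Interferon-stimulated genes gave 7 higher and 1 lower of 20 (35% and 5%, against 24.8% and 11.9% of all genes), all under 1 log2 in size, and 2 higher and 2 lower with cyclic loess. Of 14 matrix protease genes 2 were called higher and 4 lower (14.3% and 28.6%), or 6 and 4 with median centring and 0 and 4 with cyclic loess, among them PLAUR, the urokinase receptor, at -1.91 ± 0.20 (adjusted p = 0.000145), whose second probe gave -0.30 (adjusted p = 0.316). FTL, the ferritin light chain of the NRF2 targets, gave -3.39 ± 0.79 (adjusted p = 0.00786) and -3.44 (adjusted p = 0.00844). Ribosome biogenesis genes, which fell in both lines (median responses of -1.30 in E746-E750 and -1.47 in WT cells), had 8 called higher and 3 lower of 18 (44.4% and 16.7%). With the L858R arrays in the fit 1 was called higher, and by the second probe, which fewer genes have, 2 were. The count of 8 was 5 without E746-E750 aerobic replicate 1 or WT aerobic replicate 1.

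Basal cell keratin was high on all 8 arrays, with KRT5 at 13.67 and 13.82 in E746-E750 hypoxic cells and 13.52 and 13.49 in E746-E750 aerobic cells, against 12.82 and 12.85 in WT hypoxic cells and 13.51 and 13.17 in WT aerobic cells. TP63 and KRT17 had no tested probe, and none of 10 alveolar markers did. Of 9 basal cell markers tested, 4 were called higher in the response (44.4%, against 24.8% of all genes) and none lower, KRT5 by 0.74 ± 0.19 (adjusted p = 0.0118) and CDH3, P-cadherin, by 1.28 ± 0.16 (adjusted p = 0.000365). The count called higher was 8 with median centring and 3 with cyclic loess. Neither KRT5 nor CDH3 was called with the L858R arrays in the fit, and KRT5 was not called with the authors' processed values. Over the 9, the mean log2 level was 10.8 on both E746-E750 hypoxic and 10.4 on both E746-E750 aerobic arrays, against 10.3 to 10.5 on the WT hypoxic and 10.4 to 10.5 on the WT aerobic arrays. The squamous list gave 2 higher and 1 lower of 9 (22.2% and 11.1%). Of the 2 higher, 1 was FLG, the cornified-layer protein filaggrin. It was detected on the E746-E750 hypoxic arrays (8.42 and 8.33) and on no other of the 8, so it has no measured response in WT cells. FLG passed the detection filter only through the arrays where it is high, so its call is not counted as support. Of 6 secretory and ciliated markers LCN2 was higher, at 1.83 ± 0.18 (adjusted p = 8.32e-05), and SLPI lower, at -0.72 ± 0.20 (adjusted p = 0.0178). Among 8 mesenchymal markers SPOCK1 was higher at both oxygen levels, 2.79 in hypoxic and 2.01 in aerobic cells, and was called higher in the response, while ACTA2, smooth muscle actin, was called lower at -0.90 ± 0.17 (adjusted p = 0.00267). With median centring the list had 2 called higher and none lower. Its median difference in response was -0.32 with quantile normalization. In hypoxic E746-E750 cells 3 were called higher and 3 lower, against 33.2% and 17.3% of all genes. CDH2, ZEB1 and the collagens COL1A1 and COL3A1 had no tested probe. The summed signal of the 8 was 10270 to 11120 and 8133 to 8160 on the E746-E750 hypoxic and aerobic arrays, against 12020 to 12240 and 7268 to 7298 on the WT ones. Of 6 leukocyte markers tested none was called in the difference in response (1 higher with median centring). In hypoxic E746-E750 cells 2 were called higher and 2 lower, against 33.2% and 17.3% of all genes. In aerobic ones 1 was called lower, against 4.85% of all genes. PTPRC and CD3E had no tested probe. Whether changes in these markers have a part in the differences above was not tested.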

How the data were processed

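RNA of the 8 samples was labelled as biotinylated cRNA and hybridised to bead arrays, per the labels' protocols. The deposited non-normalized table holds the scanner's intensity for each of 47323 probes, and a second deposited table holds log2 values processed by the authors. The authors' log2 values had a median of 3.11 on each array and the same ranks as the intensities, and no source used here gives the method behind them. Both tables carry no detection p-value, and all 12 arrays lay on 1 chip, so position and group cannot be told apart.

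Intensities were background-corrected with normexp (offset 50), quantile normalized and log2-transformed (limma 3.58.1, R 4.3.3). Detection meant a signal above percentile 99 of the noise on that array, and a probe was kept if it met that on at least 2 of the 8 arrays. GEO's platform annotation gave 30113 probes 1 gene, 8 several and 17202 none, and 39 older symbols were not updated. Of 15301 kept probes the brightest of each gene was fitted, 11441 genes in all, with 4 group means and empirical Bayes moderation (4 residual degrees of freedom). Values after ± are standard errors, and p-values are two-sided and adjusted by Benjamini-Hochberg over all 11441 genes, or over all kept probes for a second probe. A bound, written "at least", sets an undetected group at the lowest detected signal of its arrays.

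Named genes were the largest called differences in each class of the split, by probe support, up to 3 called members of each gene list, and 6 genes always given; any other was chosen after its values were seen. The samples, gene lists and rules were chosen with earlier results of these data known. CA9 had no kept probe. The code was tested on simulated data. Alternatives covered background, scaling, filter, probe, spread, arrays and the split rule. Promoters come from RefSeq on GRCh38.p14, and the precision is limited by the number of arrays.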

Additional observations from a re-analysis of the deposited data

Results flagged for a closer look

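Each result here is a difference between the lines in the response to hypoxia, tested as an interaction in limma. It was called for 4203 genes, and in 501 of them both responses were called and ran in opposite directions.

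Among named genes of that second kind, TXNIP stood at 4.58, IL1RL1 at 3.31, ARRDC4 at 2.41, SLC23A2 at 2.31, LARP1B at 2.07, CLDN1 at 1.81 and NIBAN1 at 1.77, all log2 and all up in E746-E750 cells and down in WT cells. UPP1 at 2.03 and PVR at 2.29 had the same pattern by the brightest probe, but not by the second. The opposite pattern, down in E746-E750 cells and up in WT cells, was found for PGAM1 at -5.78, FADS2 at -4.59, RNA18SN5 at -4.51, IKBIP at -3.72 and FGFBP1 at -2.68. The IKBIP value rests on 1 of its probes. The IL1RL1 and FADS2 values, each by the brightest probe, are read against an undetected group. By these probes the differences are known only as at least 8.18-fold higher and at least 21.2-fold lower, and the second probe of IL1RL1 gave a smaller value.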

How the results depend on the processing

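The difference in response was called for 1104 genes by the second probe and 870 with all 12 arrays. Those settings gave 1570 and 2125 for the gap in hypoxic cells, 1752 and 3233 for the E746-E750 response, and 807 and 1559 for the WT response; the second probe exists for fewer genes. The gap in aerobic cells was called for 3084 genes with median centring, 386 with the authors' processed values, 95 by the second probe, 33 with all 12 arrays and 2297 with array weights. Both probes were called in 809 genes with median centring and 69 with all 12 arrays. The aerobic-level share was 13.1% with median centring, 3.89% by the second probe, 3.79% with all 12 arrays and 5.23% with a factor of 3. The both-level share was 35.8% with median centring, 11.4% by the second probe, 10.6% with a factor of 1.5, 33.3% with a factor of 3 and 7.26% by calls. Leaving out 1 array gave 2709 to 5200 genes for the difference in response, 4659 to 6162 for hypoxic cells, 178 to 1749 for aerobic cells, 5096 to 6758 for the E746-E750 response, 2974 to 5307 for the WT response and 259 to 607 for both probes. The shares then ran from 70.3% to 77.1% (hypoxic-level), 6.28% to 9.11% (aerobic-level) and 16.2% to 21.8% (both-level). For aerobic cells it was 1749 and 1744 without E746-E750 hypoxic replicates 1 and 2, 226 and 178 without E746-E750 aerobic replicates 1 and 2, and 263 and 203 without WT aerobic replicates 1 and 2.

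Samples of the same number share only a number (correlations of their deviations from -0.157 to 0.21). With a replicate block 4294 genes were called for the difference in response, 5874 in hypoxic and 972 in aerobic cells, 6642 and 4489 for the E746-E750 and WT responses, and 461 by both probes.

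Of 122 called named genes, 46 were called in every alternative tried on them, and 93 in every fit with 1 array left out. Signs turned by the second probe were UPP1 (-0.471), PCK2 (-1.3), PVR (-0.361), XRCC6 (-0.266), RRM2B (0.379), PHLDA1 (-0.307), HK1 (-1.36, and -0.276 by the mean of probes), SREBF1 (-1.49 and -0.179), LAMB3 (-1.1 and -0.18) and EGFR (-1.34 and -0.648). ACTB turned by the mean of probes (-1.96), and BARD1 (0.00703) and TXNRD1 (0.0619) by median centring. MOCS2 was 0.267 by the second probe and with detection on all 8 arrays. IKBIP was 0.468 with the authors' values, 0.485 by the second probe, 0.483 with all 12 arrays and -4.07 to 0.739 with 1 array left out, above 0 in the fits where the sign turned (0.216 to 0.739). HNRNPK was 0.603 with offset 16, 1.2 with median centring, 0.615 with cyclic loess, 0.616 with the authors' values, 0.593 by the second probe, 0.59 with all 12 arrays and -4.48 to 0.721 with 1 array left out (0.476 to 0.721 where the sign turned). In IKBIP and HNRNPK another probe then became the brightest. For the others, and for the counts above, the cause was not tested. With all 12 arrays the E746-E750 difference was 1.07 for VEGFA, -1.23 for MCM7, -1.07 for CDK1 and 1.67 for DDIT3. These sizes lie close to those from the 8 arrays. None of them was called in that fit, whose estimate of spread takes in the L858R arrays. With 2 arrays a group, precision is low, and an undetected group gives only a bound.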

Other observations

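The series also holds 4 arrays of cells with L858R EGFR, an alteration in the same kinase domain. When all 12 arrays were fitted together, the hypoxia response of L858R cells could be set beside that of WT cells for the genes above. Both differences use the same WT arrays, so a shared direction is no separate evidence. TXNIP differed by 4.49 in L858R cells (adjusted p = 0.000435, limma) and by 4.55 in E746-E750 cells in that fit. It read 12.37 and 12.91 on the L858R hypoxic and 11.66 and 11.93 on the L858R aerobic arrays, against 9.28 and 9.99 on the WT hypoxic and 13.23 and 13.33 on the WT aerobic arrays. MAT2A differed by 2.42 in L858R cells and 3.11 in E746-E750 cells, SLC30A1 by 2.50 and 2.96, DNAJB9 by 3.53 and 2.70, and MCM4 by -1.61 and -1.81. For NIBAN1 it was 2.46 and 1.79.

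DDIT3 stood apart in its spread. Its L858R hypoxic arrays read 12.36 and 9.26, and with them in the fit neither its L858R difference (0.79, adjusted p = 0.696) nor its E746-E750 difference (1.67, adjusted p = 0.436) was called. CDK1 gave -0.30 in L858R cells (adjusted p = 0.568) and -1.07 in E746-E750 cells (adjusted p = 0.0649). PGAM1 was likewise uneven, with L858R hypoxic arrays at 9.66 and 6.08, a difference of -5.57 in L858R cells (adjusted p = 0.039). For other losses in hypoxic E746-E750 cells, the L858R and E746-E750 differences were -5.14 and -5.17 for ANXA8 and -5.9 and -6.4 for RNA28SN5. They were -4.71 and -5.28 for RPL29, -4.74 and -4.63 for FADS2 and -3.50 and -3.98 for MAEA. For HNRNPK they were -3.50 and -3.43, and neither was called in that fit (adjusted p = 0.272 and 0.322, limma).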
